A study of Mus musculus with 8 samples.

Results

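Secreted and membrane inhibitors of Wnt signaling were followed in depilated mouse skin treated with alpinetin (AP) or with its vehicle (VC). The 10 genes were chosen by name: Sfrp1, Sfrp2, Sfrp4, Sfrp5, Wif1, Apcdd1, Dkk1, Dkk2, Dkk3 and Dkk4. Of these 10 genes, 9 had a row among the 18770 genes listed, and 8 were among the 15964 genes tested, which reached 3 normalized counts or more in 4 or more of the 8 libraries. Dkk4 had no row and was not analysed here, and Dkk1 was listed but did not pass the filter. Sfrp1 and Apcdd1 were among the Wnt pathway genes that the study named from these same samples, so their values here are not independent of that choice.

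Wnt ligands bind Frizzled receptors and the co-receptors Lrp5 and Lrp6, which stabilizes β-catenin and turns on its target genes, and in skin this signal is needed for hair follicles to form and to enter the growth phase. The antagonists act outside the cell or at its surface. Sfrp proteins carry a Frizzled-like cysteine-rich domain and bind Wnt ligands, Wif1 binds Wnt ligands through its own domain, Apcdd1 is a membrane glycoprotein that inhibits the pathway and is mutated in a hereditary form of hair loss, and Dkk1, Dkk2 and Dkk4 bind Lrp5 and Lrp6, with Kremen proteins as partners.

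The study asked how AP, a plant flavonoid, acts on hair regrowth. All animals were male. The sample labels give wildtype C57BL/6 mice aged 7 to 8 weeks, and the methods give C57BL/6J mice whose dorsal hair was removed at 6 to 7 weeks; skin was taken at day 4 after depilation. The AP group received 20 µl of AP at 3 mg/ml in 65% ethanol and the VC group 65% ethanol alone, applied to the skin once a day from 24 h after depilation. Per the methods the epidermis between follicles was taken off and the dermis with its follicles was used for RNA. Markers of suprabasal epidermis were still read in every library, with values given below. There were 4 libraries in each group and 4 mice per group. Libraries are named by group and number (VC.1, VC.2, VC.3 and VC.4; AP.1, AP.2, AP.3 and AP.4), and values are given in that order, since they could not be tied to the labelled samples.

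The libraries differed between groups before any gene was compared. The share of reads from the 13 mitochondrially encoded genes was 48.4% ± 5.81 (SD, n = 4) in VC and 8.66% ± 2.63 (SD, n = 4) in AP, and the lowest VC library (VC.3, 42.1%) lay above the highest AP library (AP.1, 11.1%). Without these genes, reads per library ran from 3080758 to 3762217 in VC and from 7561598 to 10594787 in AP, a ratio of medians of 2.54. A floor of 3 reads was worth 4.10 to 5.63 normalized counts in VC and 1.49 to 2.18 in AP. Markers of suprabasal epidermis, a layer that the dissection was meant to remove, also differed: 6 of 7 were higher in AP at a limma adjusted p under 0.05, and their summed normalized counts were 4626, 11349, 7397 and 4914 in VC and 34846, 36189, 93901 and 143825 in AP. Krt10 was the most abundant of these 7 markers, and none of them was at 0 in any library. Other lists were on the higher side too. All 6 basal keratinocyte markers were above 0 and 3 passed, 1 to 3 with a library left out (summed 24117, 78090, 46700 and 21902 in VC, 49171, 52381, 94066 and 138232 in AP, Krt14 the most abundant). All 4 endothelial markers were above 0 and 2 passed, 1 to 3 with a library left out (684, 480, 965 and 1067 in VC, 1697, 4180, 1532 and 1588 in AP, mostly Pecam1). Smooth muscle markers were split: 3 of 4 were above 0 and 2 passed as higher, 1 to 2 with a library left out, while Des was below 0 and 1 marker passed as lower without AP.1. Their sum, mostly Des, did not rise (3451, 5777, 3603 and 4099 in VC, 6918, 4743, 1957 and 3155 in AP). None of these markers was at 0 in any library. The part of the mitochondrial share, the depth and these cell types in the results on the antagonists and other pathway genes was not tested. In whole tissue, fewer cells of a type and less RNA per cell cannot be told apart.

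Wif1 was lower in AP, at 0.423 times its VC level, and was the only tested antagonist with an adjusted p under 0.05 (limma on log2 of the normalized count + 1, Benjamini-Hochberg adjustment over the 15964 genes). Lower calls made up 4.0% of all genes tested and higher calls 6.33%. Sfrp1 and Apcdd1 had higher values in every AP library than in any VC library, with adjusted p of 0.0620 and 0.0508, just past the threshold. Of the 8 tested, 2 were thus non-overlapping and higher, against 10.3% of all genes, and 0 were non-overlapping and lower, against 8.91%. No antagonist passed as higher by limma at an adjusted p under 0.05, while 3 were higher at an unadjusted p under 0.05, as were 17.04% of all genes. The number called higher was 0 by edgeR (6.28% of all genes), 0 by limma-voom (4.48%) and 2 by DESeq2 (10.5%).

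At a fold change over 1.5 with p below 0.01 before adjustment, thresholds that the study applied to DESeq2 with its own minimum count, limma with the filter used here called 2 antagonists higher (Sfrp1 and Apcdd1; 8.26% of all genes were called higher) and 1 lower (Wif1; 5.32% of all genes were called lower). Of the 8 genes 5 had a log2 fold change above 0 and 3 below 0, with a median of 0.55, where the median of all genes tested was 0.06. Without AP.1, 4 were above 0 and 4 below, with a median of 0.32. With a trend over the longest transcript removed the median of the 8 was 0.31. Scaling by total counts moved the median of all genes by 0.84 and placed 7 of the 8 above 0. In that scaling the split over all genes was 8657 higher and 70 lower, in place of 1011 higher and 639 lower.

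**Figure D1:**
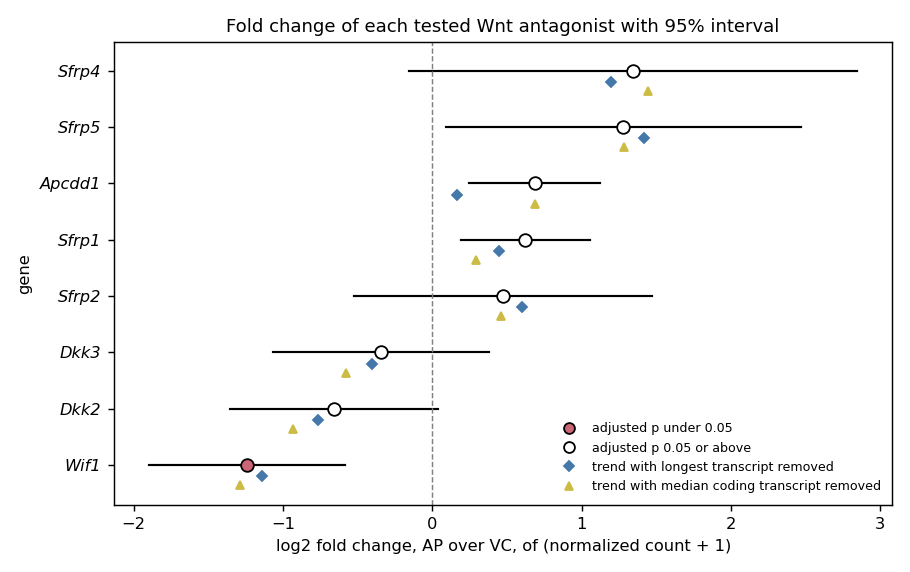
Log2 fold change of the 8 tested antagonists, AP over VC, on the horizontal axis, with 1 gene per line; circles and bars give the limma estimate and its 95% interval over 4 libraries per group, diamonds and triangles the estimate after a trend with transcript length was removed. Wif1 at -1.24 is the filled circle, adjusted p under 0.05, while Apcdd1 moves from 0.68 to 0.16 or 0.69 depending on the transcript length used; scaling by total counts, not drawn, turns Dkk2 and Dkk3 above 0.

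Sfrp1, which binds Wnt ligands and Frizzled receptors, lies on chromosome 8 at 23411502 to 23449632 (plus strand, GRCm38). It stood at 346, 307, 453 and 287 normalized counts in VC and at 498, 459, 709 and 482 in AP. AP.3 and VC.3 were the high libraries of their groups, and the lowest AP library (AP.2) lay just above the highest VC library (VC.3). The mean was 348 ± 74.1 (SD, n = 4) in VC and 537 ± 116 (SD, n = 4) in AP. The log2 fold change was 0.62 (SE 0.20, 95% interval 0.19 to 1.05) with a limma adjusted p of 0.0620. The exact two-sided permutation p was 0.0286, the smallest that the 70 assignments of 4 libraries against 4 allow. Every gene whose groups do not overlap gets this p, so it only restates the separation. Of all genes tested, 10.3% were apart and higher and 8.91% apart and lower. Leaving out VC.3 brought the limma adjusted p to 0.0387, DESeq2 gave 0.0376 and non-mitochondrial reads drawn down to equal depth gave 0.0440 with limma. The adjusted p was under 0.05 in 4 of the 23 alternatives, 1 of these 4 with a library left out, and ran from 0.00140 to 0.325.

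The size of the Sfrp1 difference depended on how transcript length was treated. Its transcript has 4372 bases, against a median of 3171 for the longest transcript of the genes tested. With the trend over the longest transcript removed in each library the log2 fold change was 0.45 (limma adjusted p = 0.156), and with the trend over the median coding transcript, an alternative chosen after seeing the data, it was 0.29 (limma adjusted p = 0.325).

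Sfrp2, Sfrp4 and Sfrp5 share the Frizzled-like domain with Sfrp1. Sfrp2 (chromosome 3, 83766321 to 83774316, plus strand) had 78.2, 183, 80.6 and 158 normalized counts in VC and 442, 130, 100 and 118 in AP. Sfrp4 (chromosome 13, 19623104 to 19632994, plus strand) had 16.4, 108, 41.0 and 35.6 in VC and 344, 87.9, 30.9 and 122 in AP. Sfrp5 (chromosome 19, 42197971 to 42202252, minus strand) had 14.6, 63.5, 73.7 and 16.9 in VC and 144, 70.1, 55.8 and 78.7 in AP. AP.1 held the highest value of all 8 libraries for each of the 3 genes, and the groups overlapped in each.

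None of these 3 genes passed the test. On the log2 scale the difference was 0.47 for Sfrp2 (SE 0.45, limma adjusted p = 0.511), 1.34 for Sfrp4 (SE 0.69, limma adjusted p = 0.208) and 1.28 for Sfrp5 (SE 0.54, limma adjusted p = 0.138). The 95% interval spanned 0 for Sfrp2 (-0.52 to 1.47) and for Sfrp4 (-0.16 to 2.84), and for Sfrp5 it ran from 0.09 to 2.47 before adjustment. Without AP.1 the value for Sfrp2 was -0.0082 and that for Sfrp4 was 0.77, so the mean difference in Sfrp2 came from that library. AP.1 was also the library with the highest sum of fibroblast markers: for the 7 markers the summed normalized counts were 114337, 76823, 78811 and 215419 in VC and 249591, 186397, 134157 and 95253 in AP. Col1a1 was the most abundant of them and none was at 0 in any library. Within VC the order differed: VC.2 had the lowest fibroblast sum and the highest Sfrp2 and Sfrp4, while VC.4 had the highest sum. AP.1 also had the highest sums of skeletal and smooth muscle markers (63650 and 6918). The part of fibroblast or muscle content in the Sfrp values was not tested. Exons of Sfrp2 overlap the antisense gene Gm26771, which averaged 27.1 normalized counts over the 8 libraries and was also highest in AP.1 (85.6). Whether the counting used strand is not given in the sources used here, so reads from the overlap cannot be told apart.

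**Figure D2:**
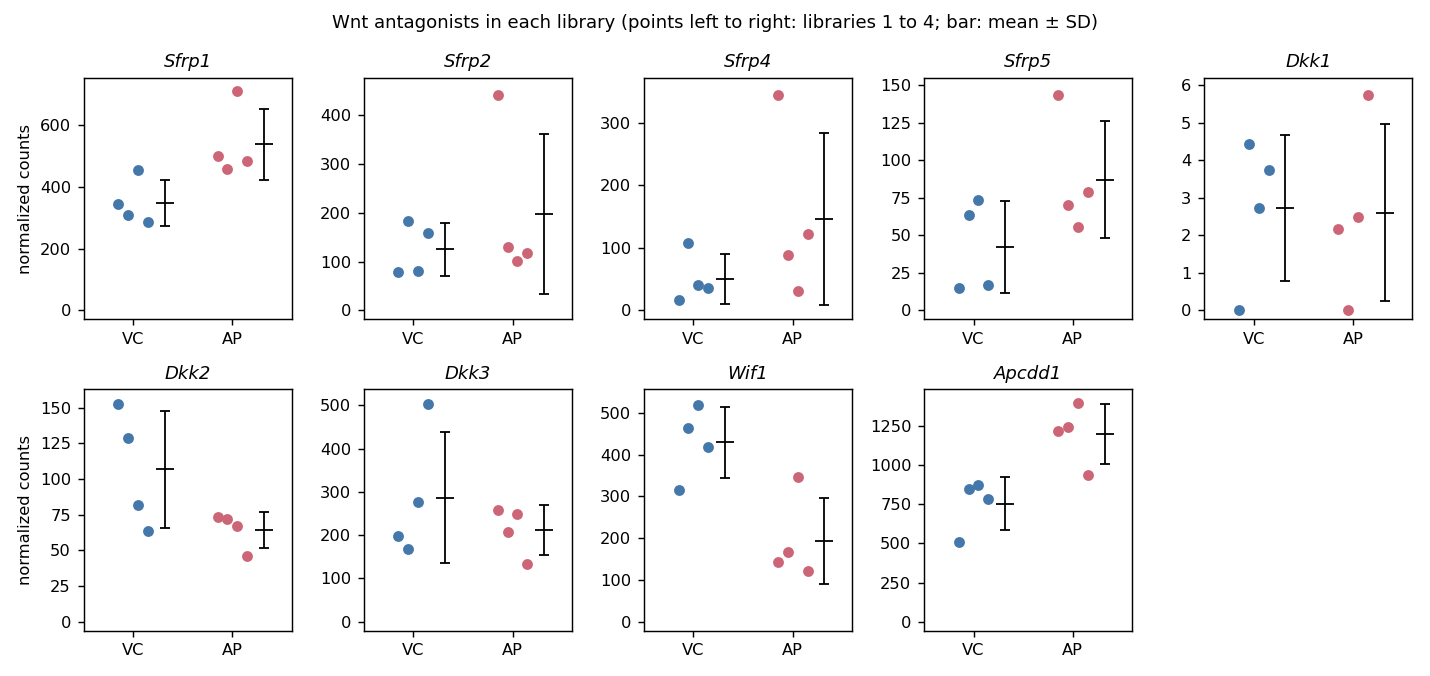
Normalized counts (vertical axis, linear, a separate scale per gene) of the 9 listed antagonists in the 4 VC and 4 AP libraries; points run from library 1 to 4 and bars give the mean ± SD. All AP points lie above all VC points for Sfrp1 (459 to 709 over 287 to 453) and Apcdd1 (933 to 1393 over 506 to 873), while for Wif1 AP.3 at 346 lies within the VC range of 317 to 519.

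Wif1, a secreted protein that holds Wnt ligands away from their receptors, lies on chromosome 10 at 121033960 to 121100650 (plus strand). It had 317, 464, 519 and 418 normalized counts in VC and 143, 166, 346 and 122 in AP. Of the 4 AP libraries 3 lay below every VC library, and AP.3 lay above VC.1, so the groups overlapped through that library. The mean was 429 ± 85.8 (SD, n = 4) in VC and 194 ± 103 (SD, n = 4) in AP. The log2 fold change was -1.24 (SE 0.30, 95% interval -1.90 to -0.59; limma adjusted p = 0.0282), a fold of 0.423 with an interval from 0.269 to 0.665. The exact two-sided permutation p was 0.0571.

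The direction of the Wif1 difference held in all 23 alternatives, and the call at an adjusted p under 0.05 in 15 of the 23, with adjusted p from 0.00888 to 0.396. With 1 library left out the log2 fold change ran from -1.56 to -1.06, and the limma adjusted p passed 0.05 without VC.2 (0.0521), VC.3 (0.0562), VC.4 (0.0513), AP.2 (0.0706) or AP.4 (0.0806). Scaling by total counts gave -0.37 (limma adjusted p = 0.396), a fit without the intensity trend gave -1.24 (limma adjusted p = 0.0746), and removal of the trend with the longest transcript gave -1.14 (limma adjusted p = 0.0507).

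Markers of the dermal papilla, the mesenchymal cluster at the base of the follicle, were on the same side as Wif1. All 8 markers had a log2 fold change below 0 and 2 of 8 were lower at an adjusted p under 0.05: Sox2 (-1.78, limma adjusted p = 0.0174) and Crabp1 (-2.17, limma adjusted p = 0.0167). The number called lower ran from 0 (without AP.4) to 3 (without VC.3) with 1 library left out. In total-count scaling 4 of the 8 were below 0 and 1 passed as lower, Crabp1 (-1.30, limma adjusted p = 0.0236). The summed normalized counts of the 8 markers were 2594, 2985, 4115 and 3836 in VC and 1461, 1583, 2402 and 1289 in AP. Vcan was the most abundant of the 8 and none was at 0 in any library. VC.3 and AP.3, the highest libraries of their groups for Wif1, were also the highest for this sum. They were the highest for Sfrp1 and Apcdd1 as well, whose log2 fold changes were above 0. Their mitochondrial shares were the lowest of their groups (42.1% and 5.32%). Over all genes tested, 4.0% passed as lower. Other marker lists lay on the side of Wif1 too. Below 0 were 4 of 5 leukocyte markers (median -0.26) and 4 of 6 hair matrix markers (median -0.44). In both lists 0 passed, and 0 to 1 passed as lower with a library left out. In total-count scaling 3 of the 5 leukocyte and 6 of the 6 hair matrix markers were above 0. All 5 melanocyte markers were below 0 and 3 passed as lower, 1 to 5 with a library left out (summed 4222, 3189, 3763 and 1313 in VC, 1212, 1463, 1943 and 1111 in AP, Dct the most abundant). All 6 skeletal muscle markers were below 0 in the main fit, with 2 of the 6 above 0 by edgeR and by DESeq2. Of these 6, 0 passed, but all 6 did without AP.1 (39996, 62422, 31337 and 31557 in VC, 63650, 7876, 4684 and 10001 in AP, Acta1 the most abundant). Of 4 Schwann cell markers 3 were below 0 and 2 passed, 1 to 2 with a library left out (2776, 3974, 3090 and 3101 in VC, 3600, 2893, 1889 and 2287 in AP, Mbp the most abundant). None of these markers was at 0 in any library. In total-count scaling 2 of the 5 melanocyte markers and 1 of the 6 skeletal muscle markers were above 0, and 1 melanocyte marker passed as lower. Of the 4 Schwann cell markers 2 were then above 0, and 1 passed as higher and 1 as lower (median of the list 0.16). The part of any of these cell types in the Wif1 result was not tested.

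Apcdd1 lies on chromosome 18 at 62922231 to 62961179 (plus strand). It had 506, 844, 873 and 784 normalized counts in VC and 1213, 1238, 1393 and 933 in AP. VC.1 and AP.4 were the low libraries of their groups, and AP.4 still lay above VC.3, the highest of VC. The mean was 751 ± 168 (SD, n = 4) in VC and 1194 ± 191 (SD, n = 4) in AP. The log2 fold change was 0.68 (SE 0.20, 95% interval 0.25 to 1.12, limma adjusted p = 0.0508). The exact two-sided permutation p was 0.0286, the smallest possible, which here too only restates that the groups did not overlap. The call changed sides with small changes of method: DESeq2 gave an adjusted p of 0.0204 and a limma pseudocount of 5 gave 0.0467. Of the 23 alternatives 4 passed, in a range from 0.00143 to 0.595, and none of the 8 fits that left out 1 library passed (0.0520 to 0.149).

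For Apcdd1 the annotation leaves the length of the transcript unsettled, and the result turned on it. GENCODE M21 gives 3 coding transcripts, the shortest of 1842 and the longest of 10879 bases. With the trend over the longest transcript removed, the log2 fold change was 0.16 (limma adjusted p = 0.595). With the median coding transcript of 1888 bases in its place, chosen after seeing the data, it was 0.69 (limma adjusted p = 0.0524).

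Dkk1, Dkk2 and Dkk3 are the listed Dickkopf genes. Dkk1, which blocks Lrp5 and Lrp6, lies on chromosome 19 at 30545863 to 30549665 (minus strand) and was close to the limit of detection: it had 0, 3, 2 and 2 reads in VC and 3, 0, 5 and 8 reads in AP. These are 0, 4.43, 2.73 and 3.75 normalized counts in VC and 2.18, 0, 2.49 and 5.72 in AP. It was left out of the main fit. With no filter its log2 fold change was -0.09 (95% interval -1.74 to 1.55; limma adjusted p = 0.953 over 18770 genes), so at this depth no difference in Dkk1 was detectable.

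Dkk2, which acts on the same co-receptors and can block or activate the pathway depending on the cell, lies on chromosome 3 at 132085292 to 132180304 (plus strand). It had 153, 129, 81.9 and 63.8 normalized counts in VC and 73.3, 71.7, 67.3 and 45.8 in AP. VC.1, VC.2 and VC.3 were above all AP libraries, and VC.4 lay among the AP values. The mean was 107 ± 41.1 (SD, n = 4) in VC and 64.5 ± 12.7 (SD, n = 4) in AP, and the difference on the log2 scale was -0.66 (SE 0.32, 95% interval -1.36 to 0.04; limma adjusted p = 0.187). In total-count scaling the value was 0.20.

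Dkk3, a divergent family member that does not bind Lrp5 or Lrp6 as the others do, lies on chromosome 7 at 112116017 to 112159057 (minus strand). It had 198, 168, 276 and 503 normalized counts in VC and 259, 208, 249 and 133 in AP. The groups overlapped. VC.4 was the highest library and also had the highest fibroblast and endothelial marker sums of VC. Its leukocyte marker sum was the highest of all libraries (26192, Cd74 the most abundant). AP.1, with the highest fibroblast sum of all (249591), had a Dkk3 value of 259. The part of these cell types in the Dkk3 values was not tested. On the log2 scale the difference was -0.34 (SE 0.33, 95% interval -1.07 to 0.38; limma adjusted p = 0.513), between -0.55 and -0.03 with 1 library left out and 0.52 in total-count scaling.

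Levels of different genes were compared per kilobase of annotated exon, leaving out Apcdd1, whose mean in VC was 58.3 normalized counts per kilobase over all its exons and 398 over its median coding transcript. Among the other 8 listed genes, Wif1 had the highest level per kilobase in 4 of 4 VC libraries, with a mean of 177 ± 35.3 (SD, n = 4). Dkk3 (85.2 ± 45.0), Sfrp1 (79.7 ± 16.96) and Sfrp2 (58.0 ± 24.9) followed in VC and did not differ from each other beyond their spread. Dkk2 (28.8 ± 11.1) and Sfrp5 (22.2 ± 16.2) were lower and likewise overlapped, and Dkk1 (1.12 ± 0.803) was last. The place of Sfrp4 depended on the length used: its mean was 12.0 ± 9.54 over all annotated exons and 34.3 ± 27.2 over the median coding transcript, a length chosen after seeing the data.

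In AP the order changed at the top. Sfrp1 had the highest level per kilobase in 3 of 4 AP libraries (mean 123 ± 26.4, SD, n = 4) and Sfrp2 in AP.1, and the means of Sfrp2 (91.8 ± 75.8), Wif1 (80.1 ± 42.4) and Dkk3 (63.2 ± 17.01) lay within their spread of each other; Sfrp1 overlapped Sfrp2 and Wif1. Sfrp5 (45.8 ± 20.46), Dkk2 (17.4 ± 3.44) and Dkk1 (1.07 ± 0.972) completed the order, while Sfrp4 had 35.0 ± 32.8 over all annotated exons and 99.8 ± 93.5 over the median coding transcript. With that length for every gene Sfrp4 and not Sfrp2 was highest in AP.1 (235 against 221). The sum over the 8 genes was 464 ± 71.2 normalized counts per kilobase in VC and 457 ± 132 in AP, a difference smaller than the spread in either group. With Apcdd1 counted as well it was 522 ± 84.1 in VC and 550 ± 140 in AP over all annotated exons, and 903 ± 174 in VC and 1168 ± 236 in AP over the median coding transcript, where the difference of 265 was larger than either SD and the libraries overlapped. Within the sum over the 8 genes the share of Wif1 was 36.5%, 38.8%, 42.0% and 34.7% in VC and 9.29%, 18.3%, 29.7% and 14.8% in AP. With the median coding transcript the share was 35.1% to 42.3% in VC and 7.92% to 30.3% in AP, and with Apcdd1 also counted 19.7% to 23.0% and 4.41% to 12.4%. The shares of the 2 groups did not overlap under any of these lengths. A share within a library does not depend on how libraries are scaled, but it falls when other genes of the sum rise. It was not corrected for the trend with transcript length. With Apcdd1 counted over the median coding transcript, the Dkk2 share did not overlap either (1.82% to 6.38% in VC, 1.36% to 1.80% in AP). Without Apcdd1 the Dkk2 shares overlapped. The share of Sfrp1 was 17.5% ± 4.41 (SD, n = 4) in VC and 28.0% ± 7.11 (SD, n = 4) in AP, and its ranges overlapped.

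Other genes of the pathway were counted over whole lists of its parts, where 6.33% of all genes tested passed as higher and 4.0% as lower. Among 18 further inhibitors and feedback genes 4 passed at an adjusted p under 0.05, and the median log2 fold change was 0.13. Kremen1, the Dkk co-receptor, was higher (0.85, limma adjusted p = 0.0386). The feedback inhibitors Nkd1 (-0.75, limma adjusted p = 0.0342) and Nkd2 (-0.96, limma adjusted p = 0.0151) and the secreted Lrp6 ligand Draxin (-1.24, limma adjusted p = 0.0431) were lower. With 1 library left out the call was kept in 7 of 8 fits for Nkd2, 3 of 8 for Kremen1, 2 of 8 for Nkd1 and 1 of 8 for Draxin.

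On the activating side of the pathway, 2 of 15 tested Wnt ligands passed, both higher: Wnt7b (1.79, limma adjusted p = 0.0253) and Wnt11 (1.18, limma adjusted p = 0.0386). Wnt11 was also named by the study from these samples. Of 17 receptors and co-receptors 3 passed, all higher: Lrp5 (1.18, limma adjusted p = 0.00884), Fzd1 (1.05, limma adjusted p = 0.0258) and Fzd4 (0.99, limma adjusted p = 0.0483), genes that the study also named from these samples. Of the 7 R-spondins and Lgr receptors, which raise the sensitivity of cells to Wnt ligands, 3 passed, all lower: Rspo1 (-1.48, limma adjusted p = 0.0103), Rspo3 (-1.45, limma adjusted p = 0.0212) and Rspo4 (-1.34, limma adjusted p = 0.0356). Lrp5 and Rspo1 passed in 8 of 8 fits that left out 1 library, and the other named genes in 1 (Fzd4) to 5 (Rspo3) of 8. Of 12 target genes of the pathway 1 passed, Nkd1, with a median of -0.05 for the list. Ccnd1 was at -0.43 (limma adjusted p = 0.0722) and passed as lower once a length trend was removed. It was at -0.54 over the longest transcript (limma adjusted p = 0.0489) and -0.71 over the median coding transcript (limma adjusted p = 0.0248). Several of these calls depended on the treatment of length and on scaling. With the trend over the longest transcript removed, Kremen1 (0.64, limma adjusted p = 0.0795), Wnt11 (1.11, limma adjusted p = 0.0581), Fzd4 (0.62, limma adjusted p = 0.184) and Rspo4 (-1.25, limma adjusted p = 0.0503) did not pass and Lrp5 did (0.72, limma adjusted p = 0.0264). With the median coding transcript in its place Kremen1 (0.55, limma adjusted p = 0.109), Fzd1 (0.73, limma adjusted p = 0.0682) and Fzd4 (0.52, limma adjusted p = 0.256) did not pass, and of the 17 receptors 1 was then higher (Lrp5) and 1 lower: Fzd3, at -1.01 (limma adjusted p = 0.0482) against -0.37 (limma adjusted p = 0.481) in the main fit. Of the 23 alternatives Lrp5 passed in 23, Rspo1 in 22, Nkd2 in 21, Rspo3 in 18, Wnt7b and Fzd1 in 17, Nkd1 in 15, Kremen1 and Rspo4 in 14, Wnt11 in 13, Draxin in 12 and Fzd4 in 9. In total-count scaling 11 of 18 further inhibitors and feedback genes, 5 of 15 ligands, 16 of 17 receptors, 3 of the 7 R-spondins and Lgr receptors and 7 of 12 target genes were higher (target median 0.82) and 0 lower in each list, against 54.2% of all genes higher and 0.438% lower. There the 3 R-spondins were still below 0 but none passed, Nkd1 was at 0.11, and Draxin and Nkd2 were below 0 without passing.

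The genes with the closest pattern to the 4 most abundant antagonists were found by Pearson correlation of log2 values over the 8 libraries, among 11256 other genes with a mean of at least 50 normalized counts. For Apcdd1 they were Rbl2 (r = 0.99), Cnst (r = 0.98) and Fbxl20 (r = 0.98), and for Sfrp1 they were Pcf11 (r = 0.97), Hmgxb4 (r = 0.96) and Yeats2 (r = 0.95). For Wif1 they were Tia1 (r = 0.98), Wwp2 (r = 0.96) and Gpr137 (r = 0.95), and for Dkk3 Parp12 (r = 0.97), Lrrc15 (r = 0.95) and Slamf7 (r = 0.94). No antagonist was among the nearest genes of another. The points share libraries and a difference in depth between groups, and these values are a description only.

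The region before the RefSeq start of transcription was read (RefSeq, GRCm38.p6) to show the promoters of Wif1, the called antagonist, and of the 2 listed Dkk genes with Lrp-binding products. The letters searched were CTTTGA and CTTTGT on both strands, the core bound by Tcf and Lef factors, and 27.6% of all 32851 promoters held at least 1 of them in the 250 bases before the start. Among the antagonists, Sfrp2, Sfrp5, Dkk1, Dkk2 and Wif1 had an entry, and Sfrp1, Sfrp4, Dkk3, Dkk4 and Apcdd1 did not. There were 3 matches for Dkk1, 1 for Dkk2 and 0 for Wif1, Sfrp2 and Sfrp5, marked by capitals. The windows are chr10:121033754-121034003 (plus strand) for Wif1, chr3:132085042-132085291 (plus strand) for Dkk2 and chr19:30549497-30549746 (minus strand) for Dkk1, each written 5′ to 3′ on the strand of the gene. The GENCODE gene starts earlier than the RefSeq start for Dkk1 and Wif1, so 169 bases of the Dkk1 window and 44 of the Wif1 window lie inside the GENCODE gene given above.
Wif1: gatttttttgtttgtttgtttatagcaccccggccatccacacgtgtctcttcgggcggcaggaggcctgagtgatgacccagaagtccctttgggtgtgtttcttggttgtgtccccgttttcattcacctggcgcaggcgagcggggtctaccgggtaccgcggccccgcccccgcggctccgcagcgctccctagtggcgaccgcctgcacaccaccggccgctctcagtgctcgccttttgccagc
Dkk2: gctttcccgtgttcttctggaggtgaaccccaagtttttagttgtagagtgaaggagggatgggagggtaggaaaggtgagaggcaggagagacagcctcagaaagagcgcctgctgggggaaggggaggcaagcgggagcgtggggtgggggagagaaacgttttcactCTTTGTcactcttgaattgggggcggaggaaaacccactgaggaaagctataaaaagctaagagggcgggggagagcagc
Dkk1: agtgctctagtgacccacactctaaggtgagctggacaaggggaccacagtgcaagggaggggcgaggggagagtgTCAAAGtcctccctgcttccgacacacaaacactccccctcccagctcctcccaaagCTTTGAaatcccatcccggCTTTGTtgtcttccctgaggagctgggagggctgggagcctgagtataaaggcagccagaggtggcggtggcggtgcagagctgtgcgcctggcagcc
A match is a description of these letters only.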

How the data were processed

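Messenger RNA of 8 skin libraries was sequenced. Per the study's methods reads were aligned to mm10 with STAR and counted with featureCounts, while the submitters' notes list HTSeq, and DESeq2 normalized them. The authors deposited normalized counts, a signal value per gene that is not a whole number. Each library's values were whole multiples of 1 step (150160 of 150160 within 0.01 read), which gave the reads: 6454563 to 7264151 in VC and 8507783 to 11190113 in AP. The floor of 3 reads covers counting error only; limma intervals cover the spread between libraries. The deposited fold change and p columns of the authors were not used.

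Genes that reached 3 normalized counts or more in 4 or more libraries were tested with limma 3.58.1 (R 4.3.3, intensity trend) on log2(normalized count + 1), which understates changes of low genes, with Benjamini-Hochberg adjustment and a threshold of 0.05. Alternatives were edgeR 4.0.16, DESeq2 1.42.0 and limma-voom on the reads, other scalings, pseudocounts and filters, non-mitochondrial reads drawn to equal depth, removal of a loess trend with transcript length (span 0.3), other call rules and leaving out each library. Coordinates are from GENCODE M21, which held 18766 of the 18770 gene identifiers. All antagonists were named, every passing gene of the pathway lists, and for the 4 most abundant antagonists the 3 genes most like each. Antagonists and lists were chosen with earlier results of these data known.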

Additional observations from a re-analysis of the deposited data

How the results depend on the processing

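With limma, 0 antagonists were called higher and 1 lower, beside 1011 genes higher and 639 lower. edgeR, limma-voom, TMM, upper-quartile and non-mitochondrial scaling, a pseudocount of 0.5 and both other filters gave 0 and 1 again. DESeq2 called 2 antagonists higher (1677 genes higher, 1362 lower), and an adjusted p under 0.1 also 2 (1917 genes higher, 1381 lower). A pseudocount of 5 called 1 antagonist higher, and equal depth (3080758 non-mitochondrial reads per library) and the study's p and fold thresholds 2 each. Without the intensity trend 0 antagonists were lower (376 genes higher, 216 lower). Scaling by total counts called 5 antagonists higher and 0 lower (8657 genes higher, 70 lower) and reversed Dkk2 to 0.20, Dkk3 to 0.52 and Nkd1 to 0.11; it counts the mitochondrial reads, whose share differed between groups. Removing the trend with the longest transcript left 0 antagonists lower and 580 genes higher; the median coding transcript, chosen after seeing the data, left 1 lower and 614 genes higher. Why the counts moved under the other settings was not tested.

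With 1 library left out, 0 to 1 antagonists were higher and 0 to 1 lower, beside 209 to 1082 genes higher and 94 to 817 lower. The log2 fold change of Sfrp2 ran from -0.0082 to 0.70, reversed without AP.1. No paired analysis was possible because the sample titles of the groups share no replicate numbers and the column numbers could not be tied to them. Depth limits Dkk1 most, with 7 reads over VC and 16 over AP.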

Other observations

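Close relatives of the antagonists outside the 10 genes are given here, chosen after their values were seen. Dkkl1, a relative of the Dkk genes, had 0, 23.6, 36.9 and 15.0 normalized counts in VC and 83.4, 46.4, 149 and 192 in AP. Every AP value was above every VC value, and the limma adjusted p was 0.0535. Frzb, a secreted relative of the Sfrp genes that binds Wnt ligands, was between 42.9 and 52.5 normalized counts in VC and between 20.5 and 33.9 in AP. Every AP value was below every VC value, with a log2 fold change of -0.80 and a limma adjusted p of 0.120. Neither Dkkl1 nor Frzb passed. Groups were apart in this way for 10.3% of all genes tested on the higher side and 8.91% on the lower side. Among the 18 further inhibitors and feedback genes, which include Dkkl1 and Frzb, 2 were apart and higher and 3 apart and lower. The Dkk co-receptors Kremen1 and Kremen2 lay on opposite sides of 0: Kremen1 passed as higher, while Kremen2 had a log2 fold change of -0.94 with a limma adjusted p of 0.101.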
